A study of Mus musculus with 26 samples.

Results

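The glucocorticoid-responsive genes described here are the 2 nuclear receptors that bind glucocorticoids, Nr3c1 and Nr3c2, the enzyme Hsd11b1 that makes the active hormone within the cell, and 6 target genes of the receptors, Fkbp5, Tsc22d3, Sgk1, Zbtb16, Klf9 and Errfi1. They were chosen by name, with earlier results of these data known. All 9 were found among the 50686 genes counted and were among the 17286 that were tested. RNA-sequencing was carried out on brown adipose tissue (BAT) of 26 male C57BL/6J mice aged 12 to 16 weeks. FAKO mice carry floxed Mllt4 (Afdn), the gene for the adherens junction protein Afadin, and Adiponectin-Cre, which acts in all adipocytes, white ones included, and not in the other cells of the fat pad. Their littermates served as controls. All mice were housed singly and spent 2 weeks at thermoneutrality, given as 29 °C in the methods and as 30 °C in the labels. There, 7 control and 7 FAKO mice were taken without further treatment, and another 5 control and 7 FAKO mice were taken after 6 h at 5 °C. The cold mice were moved to another incubator, so that the move and the cold cannot be told apart. The paper also took rectal temperatures repeatedly in a cold challenge and does not say whether in these mice. It gives no corticosterone levels.

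Glucocorticoids are steroid hormones of the adrenal cortex that rise in the blood under stress, cold included. In the resting cell the glucocorticoid receptor is held in the cytosol by heat shock proteins and their partners. Once it has bound the hormone, it moves to the nucleus, binds glucocorticoid response elements in DNA and raises or lowers the transcription of nearby genes. Adipocytes carry both receptors and the enzyme, and glucocorticoids are known to favour fat storage and to restrain heat production in brown fat.

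Library totals ran from 12705969 to 25732258 counts, and the lowest count of any of these genes in any mouse was 96. The markers of brown adipocytes were present in every mouse, with a summed level between 7780 and 36501 CPM (TMM-scaled counts, scaled so that libraries of unequal depth can be compared). Afdn itself was at 196 ± 21.0 CPM (SD, n = 7) in control and 195 ± 27.4 (n = 7) in FAKO mice at thermoneutrality, so that the groups are named by their labels. At 5 °C it was at 73.5 ± 4.27 (n = 5) in control and 58.5 ± 4.15 (n = 7) in FAKO mice, which did not overlap (log2 difference -0.33, SE 0.09, adjusted p = 0.116 in edgeR). These are RNA counts over the whole gene. For the protein, which it also compared at thermoneutrality, the paper reports a rise with cold that was smaller in FAKO mice. All 8 markers of skeletal muscle were found in every group and summed to between 9.57 and 16341 CPM per mouse. Neutrophil markers summed to 0.349 to 4.04 CPM at thermoneutrality and to 4.38 to 54.2 CPM at 5 °C, with 1 of the 7 markers at 0 in each thermoneutral group and the highest sum in FAKO mouse 27. In bulk tissue, fewer cells of a type and less RNA per cell cannot be told apart.

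After 6 h at 5 °C the 6 target genes rose in mice of both labels, whereas the receptor gene Nr3c2 fell 5.01-fold in control and 4.5-fold in FAKO mice, and Nr3c1 did not pass the test. In control mice, 6 of the 9 genes rose, 2 fell and 1 did not pass the threshold of an FDR below 0.05. Across all genes tested in control mice 31.6% rose and 33.4% fell, or 65.0% together, so that a call by itself was common. In FAKO mice, 6 genes rose, 1 fell and 2 did not pass, where 33.7% of all genes rose, 34.9% fell and 68.6% were called in all. No mouse at thermoneutrality overlapped with a mouse of the cold group for 5 of the 9 genes in control mice (46.4% of all genes) and for 6 of the 9 in FAKO mice (40.4% of all genes). Both comparisons used the quasi-likelihood test of edgeR, with p-values adjusted by Benjamini-Hochberg over all genes tested.

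**Figure D1:**
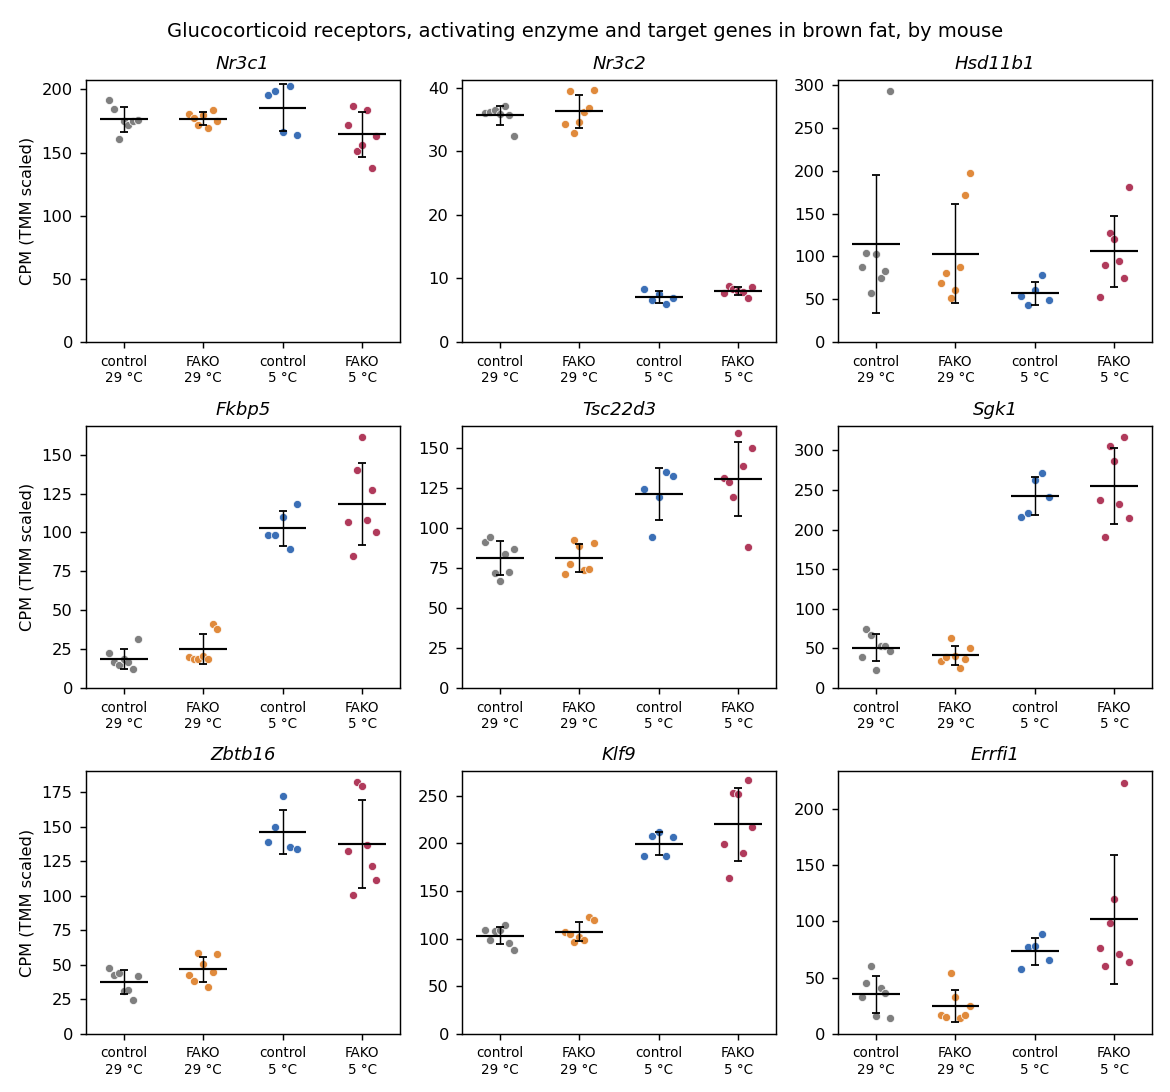
Each point is the TMM-scaled CPM of 1 mouse, with the mean and SD of each group in black and thermoneutrality marked as 29 °C. Nr3c2 lies between 6.03 and 8.89 CPM in all 12 cold mice and above 32 CPM in all 14 mice at thermoneutrality, while Fkbp5, Sgk1, Zbtb16 and Klf9 lie above their thermoneutral range in every cold mouse.

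Nr3c1, on chromosome 18 (ENSMUSG00000024431.14), encodes the glucocorticoid receptor, which most cells carry. Its level ranged from 161 to 192 CPM (median 175) in control mice and from 169 to 184 CPM (median 178) in FAKO mice at thermoneutrality. The control mice at 5 °C had 196, 199, 166, 203 and 164 CPM, and the FAKO mice at 5 °C ranged from 137 to 187 CPM (median 163). All 4 groups overlapped. The log2 fold change with cold was 0.07 in control mice (SE 0.07, adjusted p = 0.357 in edgeR). In FAKO mice it was -0.11 (SE 0.06, adjusted p = 0.141). This second value depended on the scaling and passed the threshold with library size alone (-0.42, adjusted p = 0.000829), where the median of all genes also moved to -0.34. Without FAKO mouse 23 it passed as well, at -0.15 (adjusted p = 0.0462).

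Nr3c2 encodes the mineralocorticoid receptor, which binds glucocorticoids with high affinity as well as aldosterone (ENSMUSG00000031618.13, chromosome 8 from 76899442 to 77245012 on mm10). The 7 control mice at thermoneutrality had 32.3 to 37.1 CPM (median 35.9) and the 7 FAKO mice 32.8 to 39.5 CPM (median 36.2). After cold the control mice had 8.36, 6.69, 7.60, 6.03 and 6.86 CPM, and the FAKO mice 6.92 to 8.89 CPM (median 8.04). The cold and the thermoneutral mice were thus far apart, while the labels overlapped at both temperatures. The fall was 5.01-fold in control mice (log2 fold change -2.32, SE 0.08, adjusted p = 1.61e-18) and 4.5-fold in FAKO mice (log2 fold change -2.17, SE 0.07, adjusted p = 2.38e-19). Its size was exceeded by 4.10% of all genes tested in control mice and by 4.87% in FAKO mice.

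Compared per length, as CPM per kb of exon, Nr3c1 RNA was the more abundant of the 2 throughout, and receptor protein was not measured. Nr3c1 was at 22.9 ± 1.26 CPM per kb (SD, n = 7) in control mice at thermoneutrality, against 5.50 ± 0.236 for Nr3c2. After cold the control mice had 24.1 ± 2.44 CPM per kb (SD, n = 5) of Nr3c1 and 1.10 ± 0.139 of Nr3c2. The ratio of the 2 RNAs per mouse was 4.18 ± 0.303 in control and 4.13 ± 0.303 in FAKO mice at thermoneutrality. At 5 °C it was 22.3 ± 4.19 in control mice, from 18.4 to 28.3, and 17.2 ± 1.64 in FAKO mice, from 15.3 to 19.8. The cold ratios of the labels overlapped and were not tested.

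**Figure D2:**
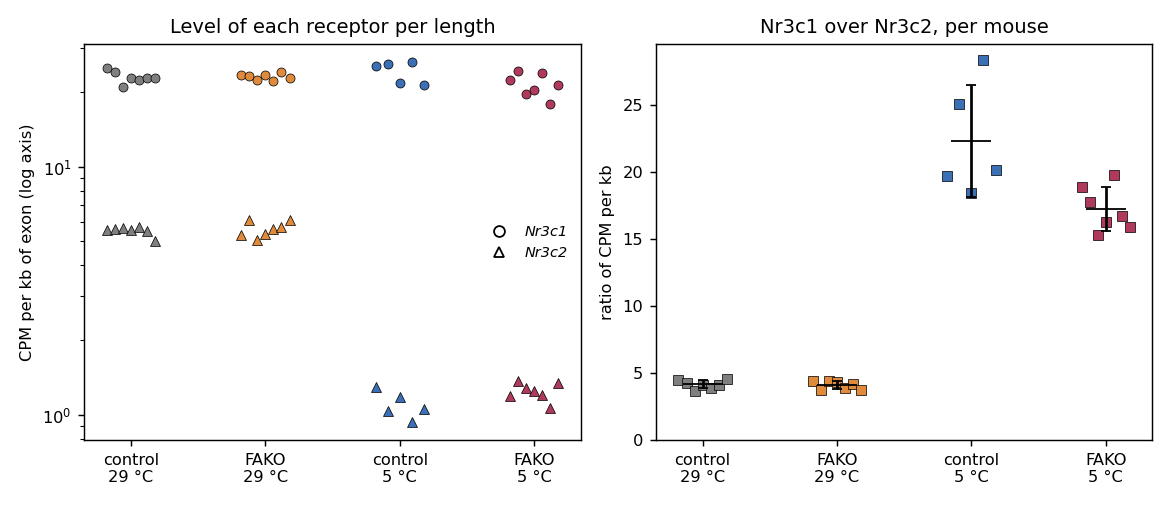
The left panel gives the level of Nr3c1 (circles) and Nr3c2 (triangles) in each mouse as CPM per kb of exon on a log axis, and the right panel the ratio of the 2 values per mouse with the mean and SD of each group. The ratio lies below 5 in all 14 thermoneutral mice and above 15 in all 12 cold mice.

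Hsd11b1 encodes 11β-hydroxysteroid dehydrogenase type 1, which turns inactive 11-dehydrocorticosterone into corticosterone (ENSMUSG00000016194.14, chromosome 1 from 193221634 to 193264075). It varied widely between mice of the same group. The control mice there ranged from 57.8 to 293 CPM with a median of 87.6, and the FAKO mice from 51.8 to 198 CPM with a median of 81.3. The high values belonged to control mouse 7 (293 CPM) and to FAKO mice 13 and 14 (172 and 198 CPM), while the next highest mouse had 104 CPM. After cold the control mice had 53.5, 43.3, 60.5, 78.3 and 49.4 CPM, and the FAKO mice 52.8 to 181 CPM (median 94.9). All 4 groups overlapped.

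In control mice Hsd11b1 fell 2.01-fold with cold (log2 fold change -1.01, SE 0.37, adjusted p = 0.0202 in edgeR). Without control mouse 7 the value was -0.60 (adjusted p = 0.0918), and without control mouse 17 it was -0.93 (adjusted p = 0.0512), so that the call rested on single mice. Mouse 7 also had the highest preadipocyte and fibroblast marker sum of all mice (2958 CPM, against 1055 to 1869 CPM in the others) and 12820 CPM of skeletal muscle markers. With the skeletal muscle marker sum as a covariate, a fit added after seeing the data, the value in control mice was -1.02 (adjusted p = 0.00829). The part of the preadipocyte and fibroblast markers was not tested. In FAKO mice the log2 fold change was 0.04 (SE 0.33, adjusted p = 0.919), and its sign differed among the settings tried.

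Fkbp5 encodes a co-chaperone that lowers the affinity of the receptor for its hormone and is itself induced by the receptor (ENSMUSG00000024222.16, chromosome 17 from 28399094 to 28517527). Control mice at thermoneutrality had 12.1 to 31.3 CPM (median 16.4), and FAKO mice 18.6 to 41.0 CPM (median 20.2). At 5 °C the control mice had 98.1, 98.4, 110.2, 89.1 and 118 CPM, and the FAKO mice 84.7 to 161 CPM (median 108). Every cold mouse was above every thermoneutral mouse. The rise was 5.47-fold in control mice (log2 fold change 2.45, SE 0.22, adjusted p = 2.29e-10) and 4.72-fold in FAKO mice (2.24, SE 0.21, adjusted p = 3.29e-10).

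Sgk1 encodes a serine/threonine kinase that acts on ion channels and on FOXO factors (ENSMUSG00000019970.15, chromosome 10 from 21882184 to 21999903). At thermoneutrality it ranged from 22.7 to 74.0 CPM (median 53.0) in control mice and from 25.6 to 63.0 CPM (median 38.6) in FAKO mice. After cold the control mice had 217, 221, 263, 271 and 241 CPM, and the FAKO mice 191 to 317 CPM (median 237). The lowest cold mouse was therefore well above the highest thermoneutral one. Sgk1 rose 4.77-fold in control mice (log2 fold change 2.25, SE 0.21, adjusted p = 4.38e-10) and 6.18-fold in FAKO mice (2.63, SE 0.20, adjusted p = 8.89e-12).

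Zbtb16 encodes the transcription factor PLZF (ENSMUSG00000066687.5, chromosome 9 from 48654297 to 48836222). Its levels were 24.6 to 47.9 CPM (median 42.0) in control mice and 33.8 to 58.1 CPM (median 44.6) in FAKO mice at thermoneutrality. In the cold the control mice had 139, 149, 172, 135 and 133 CPM, and the FAKO mice 101 to 182 CPM (median 132). Again the temperatures did not overlap and the labels did. Zbtb16 rose 3.87-fold in control mice (log2 fold change 1.95, SE 0.16, adjusted p = 5.34e-11) and 2.96-fold in FAKO mice (1.56, SE 0.15, adjusted p = 8.02e-10).

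Klf9 encodes a zinc finger factor of the Krüppel-like family (ENSMUSG00000033863.1, chromosome 19 from 23141226 to 23168134). At thermoneutrality it ranged from 88.3 to 114 CPM (median 108) in control and from 96.7 to 122 CPM (median 105) in FAKO mice. The cold control mice had 186, 208, 212, 186 and 206 CPM, and the cold FAKO mice 163 to 267 CPM (median 218). Every cold mouse was again above the thermoneutral mice. The change was 1.94-fold in control mice (log2 fold change 0.95, SE 0.10, adjusted p = 1.89e-09) and 2.05-fold in FAKO mice (1.04, SE 0.09, adjusted p = 8.05e-11), sizes that 27.4% and 24.3% of all genes exceeded.

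Tsc22d3 encodes GILZ, a leucine zipper protein through which glucocorticoids act against inflammation (ENSMUSG00000031431.13, chromosome X from 140539528 to 140600659). It had the smallest rise of the 6 target genes. Control mice at thermoneutrality had 66.7 to 94.5 CPM (median 83.4) and FAKO mice 71.3 to 92.6 CPM (median 77.4). After cold the control mice had 124, 94.5, 119, 135 and 133 CPM, and the FAKO mice 88.1 to 159 CPM (median 131). In each label 1 cold mouse, control mouse 17 and FAKO mouse 27, fell within the thermoneutral range. The rise was 1.5-fold in control mice (log2 fold change 0.58, SE 0.12, adjusted p = 9.60e-05) and 1.61-fold in FAKO mice (0.69, SE 0.11, adjusted p = 3.04e-06), and 48.0% and 41.0% of all genes changed by more.

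Errfi1 encodes MIG6, an inhibitor of the EGF receptor family (ENSMUSG00000028967.10, chromosome 4 from 150853919 to 150868892). Its thermoneutral values were spread from 13.8 to 60.0 CPM (median 35.8) in control mice and from 13.8 to 53.6 CPM (median 16.4) in FAKO mice. Control mice at 5 °C had 57.5, 76.9, 78.3, 88.6 and 65.8 CPM, and FAKO mice 60.2 to 223 CPM (median 76.5). In control mice the temperatures overlapped by 1 mouse on each side, and in FAKO mice they did not overlap. Errfi1 rose 2.11-fold in control mice (log2 fold change 1.07, SE 0.36, adjusted p = 0.0105) and 4.14-fold in FAKO mice (2.05, SE 0.34, adjusted p = 7.74e-06). The highest value, 223 CPM, was that of FAKO mouse 27, which also had the highest neutrophil and red blood cell marker sums (54.2 and 1497 CPM); their part in it was not tested.

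**Figure D3:**
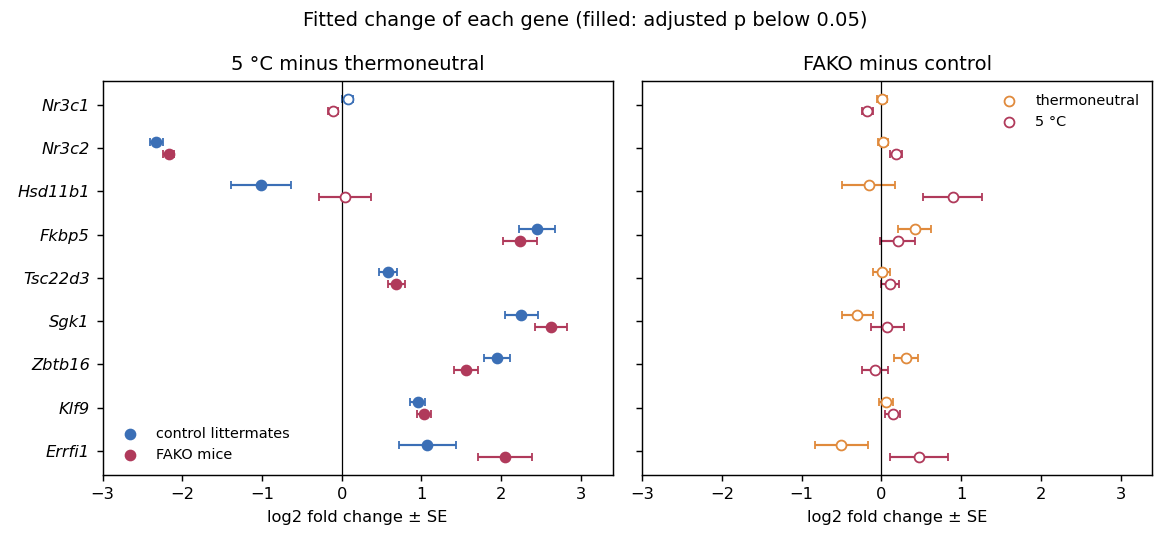
The points are the log2 fold changes of the 9 genes, with bars of the SE worked out from the F statistic. They compare 5 °C with thermoneutrality within each label (left) and FAKO with control mice at each temperature (right). Filled points have an adjusted p below 0.05 in edgeR. On the left the points of the 2 labels lie farthest apart for Hsd11b1 and Errfi1, and next for Zbtb16 and Sgk1. No point is filled on the right.

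The labels were compared at each temperature to ask whether the loss of Afadin in fat bears on these genes. At thermoneutrality 0 of the 9 genes had an unadjusted p below 0.05. Likewise 0 passed the threshold, where edgeR called 0.0810% of all genes. DESeq2 called 0 of the 9, and 0.231% of all genes. The values closest to it were those of Fkbp5, 0.42 higher in FAKO mice on the log2 scale (SE 0.20, unadjusted p = 0.0506), and Zbtb16, 0.30 higher (SE 0.15, unadjusted p = 0.0524), with an adjusted p of 0.653 for both in edgeR. The 2 highest FAKO values of Fkbp5, 41.0 and 37.7 CPM, were those of mice 13 and 14, while the other 5 FAKO mice lay between 18.6 and 20.2 CPM. Errfi1 and Sgk1 had log2 differences of -0.50 (SE 0.34) and -0.30 (SE 0.19), with adjusted p = 0.777 and 0.760.

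At 5 °C 0 of the 9 genes passed as well, by edgeR (0.139% of all genes called) or by DESeq2 (0.937%). The 3 lowest unadjusted p-values were those of Nr3c1, Hsd11b1 and Nr3c2. The shares of all genes just given are by adjusted p and are no background for them. Nr3c1 had a log2 difference of -0.18 between FAKO and control mice (SE 0.07, unadjusted p = 0.0171, adjusted p = 0.264). Nr3c2 had 0.18 (SE 0.08, unadjusted p = 0.0259, adjusted p = 0.298). Hsd11b1 had 0.89 (SE 0.37, unadjusted p = 0.0241, adjusted p = 0.293), a size that 1.67% of all genes exceeded. For all 3 genes the mice of the labels overlapped. The summed level of RNAs retained in the nucleus, Neat1 and Malat1 among them, was 14874 to 16302 CPM in the cold control mice and 10368 to 13599 CPM in the cold FAKO mice, without overlap, and its part in these differences was not tested.

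Whether the cold response differed between the labels was tested as an interaction, and 0 of the 9 genes passed by edgeR, which called 1.16% of all genes. DESeq2 called 0 of the 9, and 2.51% of all genes. The largest difference was that of Hsd11b1, whose response was 1.05 higher in FAKO mice on the log2 scale (SE 0.50, unadjusted p = 0.0439, adjusted p = 0.294). Errfi1 came next with 0.98 (SE 0.49, unadjusted p = 0.0590, adjusted p = 0.330). The values of Fkbp5, Sgk1, Zbtb16, Klf9 and Tsc22d3 were -0.21, 0.37, -0.39, 0.08 and 0.11, each with an adjusted p between 0.391 and 0.801. With SE values of 0.50 and 0.49, differences of this size in Hsd11b1 and Errfi1 could not be told from 0 with these mice.

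The genes were then compared between mice of the same group, as the deviation of each mouse's log2 CPM from its group mean over all 26 mice. Of the 36 pairs, 2 passed a permutation test within groups (100000 resamples, Benjamini-Hochberg adjustment over the 36 pairs), and 8 had an unadjusted p below 0.05. The share of pairs that pass among all genes was not worked out. The counts therefore do not tell whether these genes vary together more than other genes do. Sgk1 and Errfi1 varied together, with Pearson's r = 0.784 (permutation p = 3e-05, adjusted p = 0.00108) and Spearman's rho = 0.832 (permutation p = 1e-05, the smallest that these resamples can give, adjusted p = 0.00036). Without the 2 mice farthest from the median of Sgk1, r was 0.727. It was 0.782 over the 14 thermoneutral and 0.847 over the 12 cold mice, and it was 0.742 to 0.848 when each mouse was left out in turn. Over the 14245 genes with a mean of at least 1 CPM, Errfi1 ranked 15 among those most like Sgk1, and Sgk1 ranked 44 among those most like Errfi1.

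The other pair was Hsd11b1 and Fkbp5, with r = 0.676 (permutation p = 0.00274, adjusted p = 0.0493) and rho = 0.502 (permutation p = 0.0180, adjusted p = 0.111). Over the same 14245 genes, Fkbp5 ranked 242 among those most like Hsd11b1, and Hsd11b1 ranked 79 among those most like Fkbp5. This pair did not hold in the same way. At thermoneutrality r was 0.867, with control mouse 7 and FAKO mice 13 and 14 high for both genes, and at 5 °C it was 0.0571. Without the 2 mice farthest from the median of Hsd11b1 it was 0.473, and leaving out single mice took the adjusted p to between 0.023 and 0.110, past the threshold in 8 of 26 cases. Nr3c1 and Klf9 had r = -0.601 (permutation p = 0.0068, adjusted p = 0.0816), which did not pass. Their r was 0.123 over the 14 thermoneutral and -0.84 over the 12 cold mice, and -0.39 without the 2 mice farthest from the median of Nr3c1. With library size alone as the scaling 11 pairs passed.

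**Figure D4:**
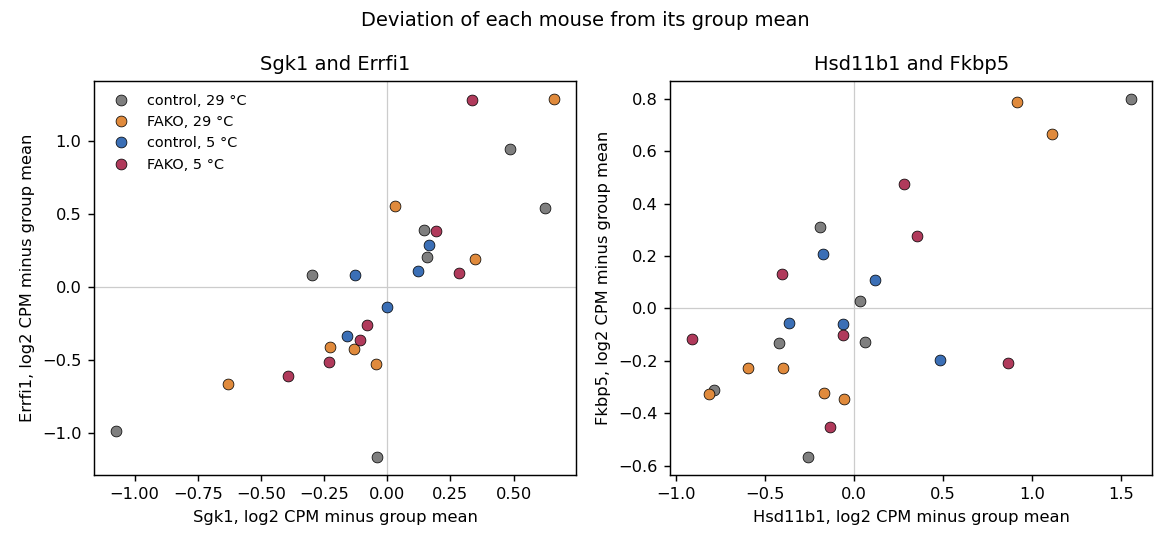
Each point is 1 mouse, placed by the deviation of its log2 CPM from its group mean for the 2 genes named on the axes. Sgk1 and Errfi1 rise together (r = 0.784 over 26 mice, 0.782 over the thermoneutral and 0.847 over the cold mice). For Hsd11b1 and Fkbp5 the 3 points at the upper right, 1 control and 2 FAKO mice at thermoneutrality, stand apart from the rest.

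The genes whose deviations were most like those of Fkbp5 were Asph (r = 0.833), Klhl2 (0.832), Egfr (0.818), Gnal (0.807) and Zfp106 (0.802), while Hsd11b1 ranked 79, Zbtb16 507 and Klf9 844 of 14245. Most like Nr3c1 were Lta4h (0.848), Kiz (0.836), Neu3 (0.836), Zfp970 (0.808) and Zfp882 (0.8), while Klf9 ranked 14105. These values describe 26 mice that share library scaling.

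Promoter windows of 300 bases (250 before and 50 after a start) were taken from RefSeq on GRCm38.p6, in which 7 of the 9 genes had 15 windows. They were searched on both strands for the half-site of the glucocorticoid response element, AGAACA or TGTTCT, for its palindrome, GNACA and TGTNC set 3 bases apart, which can overlap with half-sites, and for the cAMP response element, TGACGTCA, and its half-sites TGACG and CGTCA, which it contains. Of 32851 windows, 19.0% held the glucocorticoid half-site and 0.475% the palindrome, 20.8% the cAMP half-site and 1.79% its palindrome. Of the 15 windows, 4 held the glucocorticoid half-site and 4 the cAMP half-site. The glucocorticoid half-site was found in windows of Sgk1 and Tsc22d3, the glucocorticoid palindrome in 1 window of Sgk1, and the cAMP half-site in windows of Errfi1, Sgk1, Klf9 and Tsc22d3. A window of Errfi1 held the whole cAMP element 51 bases before the start. The window of Fkbp5 held none of these letters. The 250 bases before the start are printed for Sgk1 and Errfi1, the pair that varied together, because they are the windows with a palindrome, and the capitals mark the matched letters (5′ to 3′, GRCm38.p6, + strand).
Sgk1, chr10:21993640-21993889: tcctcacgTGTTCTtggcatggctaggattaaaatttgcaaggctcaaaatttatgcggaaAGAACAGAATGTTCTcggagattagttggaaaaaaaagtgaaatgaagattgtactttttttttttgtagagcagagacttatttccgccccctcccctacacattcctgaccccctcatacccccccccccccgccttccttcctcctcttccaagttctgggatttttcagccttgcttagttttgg
Errfi1, chr4:150854820-150855069: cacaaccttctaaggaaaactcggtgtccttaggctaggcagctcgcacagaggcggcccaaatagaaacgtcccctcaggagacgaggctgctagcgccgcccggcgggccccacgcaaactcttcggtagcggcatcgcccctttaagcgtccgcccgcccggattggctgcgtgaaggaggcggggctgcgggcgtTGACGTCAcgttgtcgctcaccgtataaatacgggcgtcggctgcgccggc
In the first sequence the half-sites in capitals begin 242, 189 and 180 bases before the start, and the last 2 of them make up the palindrome. Neither sequence overlaps an exon of its own gene in GENCODE M21, and an exon of the antisense RNA 1700045H11Rik overlaps the second. Sgk1 has 6 windows and Errfi1 2, and the counts per gene do not tell which start was used.

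Transcripts of the chaperones that hold and release the receptor mostly rose with cold. The lists here and below were written by hand with earlier results of these data known, so that their counts only describe them. Of 12 genes for chaperones and co-chaperones, 10 rose and 0 fell in control mice (median log2 fold change 0.97, against -0.01 over all genes, of which 31.6% rose and 33.4% fell), and 11 rose and 0 fell in FAKO mice (median 0.94, against -0.03 over all genes, of which 33.7% rose and 34.9% fell). Hsp90aa1, the inducible cytosolic HSP90, rose by 2.93 (SE 0.21) in control and 3.06 (SE 0.21) in FAKO mice on the log2 scale. Hspa8, the constitutive HSP70, rose by 2.43 (SE 0.18) and 2.37 (SE 0.17), and Hspa4 by 1.64 (SE 0.08) and 1.59 (SE 0.08). Fkbp4, the FKBP that favours receptor transport and competes with the product of Fkbp5, had -0.09 (adjusted p = 0.335) and -0.01 (adjusted p = 0.881) in edgeR's test. Bag1 had 0.03 in control mice (adjusted p = 0.736) and rose by 0.31 in FAKO mice. The values of Fkbp4 and Bag1 are given outside the rule for named genes, after they were seen.

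Of 10 enzymes of steroid metabolism only 4 were expressed highly enough to be tested. H6pd, which supplies NADPH to the enzyme encoded by Hsd11b1, had 0.07 in control mice (SE 0.17, adjusted p = 0.724 in edgeR's test) and rose by 0.49 in FAKO mice (SE 0.15, adjusted p = 0.00565). Hsd11b2, which inactivates corticosterone, had 0.76 in control mice and 0.41 in FAKO mice and did not pass (adjusted p = 0.0841 and 0.331). Srd5a1, a steroid 5α-reductase, was the only enzyme that fell, by 1.23 (SE 0.25) and by 1.62 (SE 0.25). It lies below the 1 CPM of the naming rule and, like Hsd11b2, was named after its values were seen.

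Of 11 coregulators of the receptor, 5 rose and 2 fell in control mice (median 0.04), where 65.0% of all genes were called. In FAKO mice 5 rose and 3 fell (median 0.27), where 68.6% of all genes were called. Both counts are thus near the share of all genes. Ncoa1 (SRC-1) rose by 1.33 (SE 0.07) and 1.17 (SE 0.07), the mediator subunit gene Med1 by 1.18 (SE 0.06) and 1.15 (SE 0.06), and Nrip1, which encodes the corepressor RIP140, by 1.13 (SE 0.16) and 1.27 (SE 0.15). The other p160 coactivators fell, Ncoa2 by 0.47 (SE 0.05) and 0.57 (SE 0.05), and Ncoa3 by 0.37 (SE 0.07) and 0.44 (SE 0.06). The corepressor gene Ncor1 fell by 0.16 (SE 0.05) in FAKO mice.

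Among 34 tested genes that glucocorticoids are known to induce in other tissues, 21 rose and 4 fell in control mice (median 0.84, against -0.01 over all genes, of which 31.6% rose and 33.4% fell). In FAKO mice 23 rose and 3 fell (median 1.18, against -0.03 over all genes, of which 33.7% rose and 34.9% fell). This list too was chosen with earlier results of these data known. The largest rises were those of Cdkn1a, which encodes the cell cycle inhibitor p21, by 4.78 (SE 0.26) and 4.49 (SE 0.25), of the metallothionein gene Mt2 by 4.31 (SE 0.37) and 5.10 (SE 0.37), and of Trim63 by 4.77 (SE 1.23) and 5.55 (SE 1.21). Trim63 encodes a ubiquitin ligase of striated muscle, and its temperature groups overlapped. None of the 8 skeletal muscle markers passed in either cold comparison, but their sums differed widely between mice. With their sum as a covariate Trim63 had 3.99 (SE 0.27) in control and 4.26 (SE 0.22) in FAKO mice. Rgs2, a regulator of G protein signalling, fell by 1.87 (SE 0.31) and 1.89 (SE 0.28). Lpin1, a phosphatidate phosphatase, fell by 0.95 (SE 0.16) and 0.75 (SE 0.14), and Crispld2 by 0.87 (SE 0.21) and 0.71 (SE 0.19). The triglyceride lipase gene Pnpla2, named after its values were seen, fell by 0.34 (SE 0.11) in control mice and had -0.11 in FAKO mice (adjusted p = 0.336 in edgeR's test).

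Of 13 tested genes that glucocorticoids are known to repress, 6 rose and 3 fell in control mice (median 0.38), where 65.0% of all genes were called, 31.6% higher and 33.4% lower. In FAKO mice 8 rose and 2 fell (median 1.68), where 68.6% were called, 33.7% higher and 34.9% lower. The chemokine gene Cxcl1 rose by 2.45 (SE 0.69) in control mice and 3.92 (SE 0.69) in FAKO mice, and Ccl7 by 2.09 (SE 0.49) and 2.99 (SE 0.47), from about 1 CPM at thermoneutrality. Icam1, an adhesion molecule, rose by 2.07 (SE 0.21) in control and 1.68 (SE 0.20) in FAKO mice, and the chemokine gene Ccl2 by 1.89 (SE 0.61) and 2.97 (SE 0.58). Nos2, the inducible nitric oxide synthase, fell by 2.18 (SE 0.16) and 2.85 (SE 0.15), and the other genes that fell were Mmp13 in both and Tnf in control mice. Il6, which encodes an inflammatory cytokine, had the largest rise, by 3.09 (SE 1.13) in control and 5.49 (SE 1.00) in FAKO mice. Mmp13, Tnf and Il6 had a mean below 1 CPM over all mice and were named after their values were seen. The neutrophil markers rose with these chemokines, 4 of 4 tested in each label, and their part in the list was not tested. None of the genes of these 5 lists passed the threshold between the labels at either temperature or as an interaction.

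**Figure D5:**
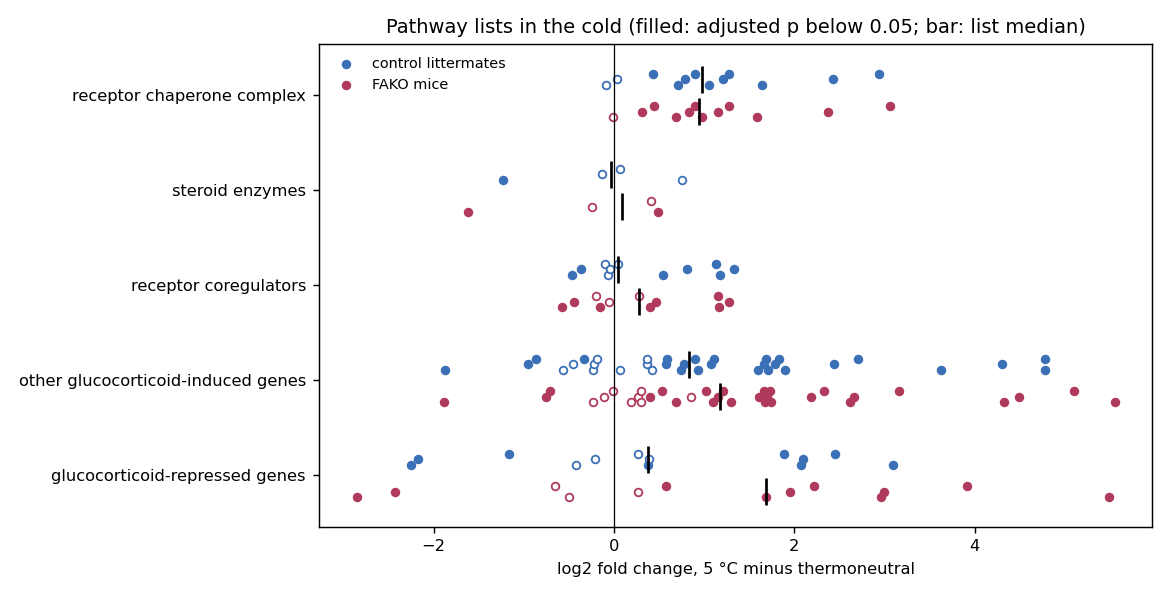
Each point is the log2 fold change of 1 gene with cold in control mice (blue) or FAKO mice (red), filled where the adjusted p is below 0.05, and the bars are the list medians. All chaperones but Fkbp4 (-0.09 in control and -0.01 in FAKO mice) lie to the right of 0, with list medians of 0.97 and 0.94. The points of the coregulators and of the repressed genes lie on both sides.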

How the data were processed

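The authors depleted rRNA from total RNA of BAT, made strand-specific libraries, read 100-bp single ends, aligned them to mm10 with STAR 2.5.2b and counted reads per gene with featureCounts 1.5.2; the strand setting of the counting is not given in the sources used here, so reads of antisense or overlapping genes may not be told apart. The deposited values are raw counts, without normalization, of 50686 genes in 26 mice, and all columns were used. Library totals of 12705969 to 25732258 set the precision.

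Groups were taken from the sample labels. Genes were kept with filterByExpr, which left 17286, and were tested in R 4.3.3 with edgeR 4.0.16 (limma 3.58.1), the quasi-likelihood method in its legacy mode, with TMM factors and 1 term per group. P-values were adjusted by Benjamini-Hochberg over all genes, with a threshold of 0.05. Log2 CPM had a prior count of 2, and CPM per kb used the union exon length in GENCODE M21. All 73 pairs of mice of the same group differed by more than sampling noise (lowest chi-square per gene 4.83). Nothing in the labels pairs mice, and each library is 1 mouse.

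The 9 genes, the lists and the rules were chosen with earlier results of these data known. All 9 genes are named, and from each list, per cold comparison, up to 3 genes with the largest positive and up to 3 with the largest negative log2 fold change past the threshold and a mean of at least 1 CPM. The 5 genes most like Fkbp5 and Nr3c1 were named by group-centred Pearson's r. Promoter sequences came from RefSeq. The fit was tested on simulated data with known changes. Alternatives were DESeq2 1.42.0, library size alone, upper-quartile factors, no filter, at least 10 counts in every mouse, the revised quasi-likelihood method, robust empirical Bayes, the compared groups only, a prior count of 0.5 for the correlations, each mouse left out in turn and, added after seeing the data, the skeletal muscle marker sum as a covariate.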

Additional observations from a re-analysis of the deposited data

Results flagged for a closer look

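In each of the 36 combinations of gene and group the highest and the lowest mouse were compared with the rest by Dixon's test, which flags about 1 in 20 groups by chance, and 3 combinations stood out. Hsd11b1 was at 293.472 CPM in control mouse 7 at thermoneutrality, where the next mouse had 104.166 CPM. The same mouse had the lowest Nr3c2 of its group, 32.343 CPM, with the next mouse at 35.6231 CPM. Errfi1 was at 222.797 CPM in FAKO mouse 27 at 5 °C, where the next mouse had 119.929 CPM.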

How the results depend on the processing

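No paired analysis was possible because the groups share no replicate numbers. Of 1098 values of the 9 genes under the other settings, 1067 kept their sign and their side of the threshold. All 6 target genes and Nr3c2 did so in both cold comparisons under every setting. In control mice 8 genes were called under each setting, and 7 to 8 when each mouse was left out. In FAKO mice 7 or 8 were called (7 to 8 without single mice), as Nr3c1 passed with library size alone (-0.42), with upper-quartile factors (-0.26), with at least 10 counts in every mouse (-0.17) and without FAKO mouse 23 (-0.15). For the labels at each temperature and the interaction 0 genes were called throughout. Library size alone moved the median of all genes to -0.14 with cold in control mice, to -0.34 in FAKO mice, to 0.13 between the labels at thermoneutrality and to -0.15 for the interaction, and upper-quartile factors moved it to -0.12 and -0.18 with cold.

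Values that changed sign did not pass the threshold in either setting. Nr3c1 with cold in control mice was -0.04962 with library size alone and -0.03196 with upper-quartile factors. Hsd11b1 with cold in FAKO mice was -0.30 with library size alone, -0.11 with upper-quartile factors, -0.0226 with at least 10 counts in every mouse and -0.000111 with only the groups compared, and -0.14 to 0.26 when each mouse was left out. As an interaction, library size alone gave Nr3c2 -0.04961, Tsc22d3 -0.08427 and Klf9 -0.13. Between the labels at thermoneutrality, leaving out each mouse gave -0.39 to 0.29 for Hsd11b1, -0.01682 to 0.02509 for Nr3c1 and -0.03917 to 0.04438 for Tsc22d3. The cause was not tested. Of the 36 correlations, 2 passed, 11 with library size alone and 1 to 4 when each mouse was left out. With a prior count of 0.5 there were 2. The filter of at least 10 counts in every mouse left 2 repressed genes that rose and 1 that fell in each label.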
